A study of Mus musculus with 6 samples.

Results

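The 9 genes described here act on the poly(A) tails and the translation of maternal mRNA and were measured in M II oocytes of aged mice matured with or without quercetin. They comprise the 4 cytoplasmic polyadenylation element-binding protein genes *Cpeb1*, *Cpeb2*, *Cpeb3* and *Cpeb4*, the RNA-binding protein genes *Dazl* and *Pum2*, and 3 genes of polyadenylation and tail binding, *Papola*, *Cpsf4* and *Pabpc1l*. The 9 genes were selected by symbol from the 53465 genes of the deposited count table, and the set was chosen on one measured property, the large spread of *Cpeb4* between pools of the same group. That spread is therefore given as a description, without a test. All 9 were found in the table and 8 had enough reads for the comparison of the groups. *Cpsf4* had too few.

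RNA was sequenced from 3 control pools and 3 quercetin pools, each of 15 M II oocytes from 3 female Kunming mice 9 to 10 months old, an outbred stock used here as a model of natural aging. By the study's methods, oocytes were stripped of cumulus cells at the germinal vesicle stage and matured in vitro for 16 h in M16 medium without quercetin (control) or with 10 μM quercetin, a plant flavonol that was added from a DMSO stock. Each value is an average over a pool, and only oocytes that had reached M II were collected. The pools held 7880467 to 9938743 counts on genes. All 10 oocyte marker genes examined, among them *Zp3*, *Gdf9* and *Bmp15*, were detected in every pool. Of 10 cumulus and granulosa markers, *Amh*, *Foxl2*, *Fst* and *Ptx3* had 0 counts in every pool. *Has2* had 14 to 49 counts and *Fshr* 6 to 18, and *Tnfaip6*, a gene of the expanding cumulus, had 0 in each control against 2, 8 and 4 with quercetin. None of 6 blood cell markers had more than 5 counts in a pool. The summed cumulus and granulosa list ran from 61.2 to 75.9 CPM (counts scaled by TMM to a common library size) in control pools and from 76.9 to 83.5 CPM in quercetin pools, most of it from the aromatase gene *Cyp19a1*. *Cyp19a1* had 58.2 to 68.6 CPM in controls and 72.9 to 75.7 CPM with quercetin, and the part of these markers in the values below was not tested. In bulk RNA, fewer cells of a type and less RNA per cell cannot be told apart.

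A fully grown oocyte makes little new RNA, so the proteins needed for meiotic maturation come from mRNA that was stored earlier with short poly(A) tails. CPEB proteins bind the cytoplasmic polyadenylation element (CPE, UUUUAU or UUUUAAU) in the 3′ untranslated region and, together with the cleavage and polyadenylation specificity factor (CPSF) on the AAUAAA signal, direct lengthening of the tail, after which the message is translated. CPEB1 acts early in maturation and is then degraded, and in frog oocytes CPEB4, itself made from a CPE-controlled mRNA, takes over its work in late meiosis. DAZL promotes and PUM2 mostly represses translation of the messages they bind, PAPOLA is the canonical poly(A) polymerase, and PABPC1L, the embryonic poly(A)-binding protein, coats the tails in oocytes.

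The 3′ ends of *Cpeb2*, *Cpeb3* and *Cpeb4* are shown because they carry the signal that CPSF reads, and because they mark where the counted mRNAs end in the annotation. Close to the end of the longest annotated 3′ untranslated region, each of these 3 genes holds the AATAAA form of the signal, given in capitals (DNA letters, coding strand, GENCODE M21 on GRCm38). The sites lie at chr5:43289690-43289719 on the plus strand for *Cpeb2*, chr19:37021301-37021330 on the minus strand for *Cpeb3* and chr11:31935604-31935633 on the plus strand for *Cpeb4*.
Cpeb2: tgttgactgactAATAAActattaagttat
Cpeb3: ggacaattggatAATAAAacgacagaatga
Cpeb4: agatgttgaatgAATAAAacttttaactca

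Further upstream, the same 3 messages hold a CPE so close to another signal that both fit in 30 bases, and the tightest such pair of each is shown because cytoplasmic polyadenylation needs both elements. They lie 228 bases before the annotated end in *Cpeb2* (chr5:43289467-43289496, plus strand), 220 bases in *Cpeb3* (chr19:37021511-37021540, minus strand) and 197 bases in *Cpeb4* (chr11:31935408-31935437, plus strand), with CPE and signal in capitals. In *Cpeb4* the CPE TTTTAT and the signal ATTAAA overlap and form 1 run of 10 bases. In *Cpeb3* the signal comes before the CPE.
Cpeb2: cgttTTTTATttttttctaAATAAAaagag
Cpeb3: tacttggAATAAAttaaTTTTATgatgcta
Cpeb4: gtaattcattTTTTATTAAAgtcattttca

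The search covered TTTTAT and TTTTAAT as CPE, AATAAA and ATTAAA as signal and TGTANATA as Pumilio element, all on the coding strand only, since these are elements of RNA. In the last 100 annotated bases, 8 of the 9 genes held a signal, against 83.1% of 9485 tested genes with such a window, and *Papola* held none. A CPE was found there in 0 of the 9, against 21.7% of the tested genes, and a Pumilio element in 0 of the 9, against 5.24%. In the last 1000 bases, all 7 genes with a 3′ untranslated region of that length held a CPE, where 71.8% of 5545 tested genes did, and the number ran from 1 in *Pum2* and *Papola* to 7 in *Cpeb4* and 13 in *Cpeb2*. A CPE paired with a signal within 30 bases was found in 3 of these 7, against 20.7% of tested genes. *Cpeb1* and *Cpeb3* each held 1 Pumilio element in that window, against 24.1% of tested genes with at least 1. A match is a string of letters and not a shown binding site, and the ends used by oocytes may differ from the annotated ones. In the 100-base window *Ccnb1* and *Mos*, both classical CPE-controlled messages, also held no CPE. Over the whole annotated 3′ untranslated region the search found 4 in *Ccnb1* (1028 bases) and 0 in *Mos* (126 bases). A message without a match in this search can therefore still be controlled through CPEs.

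*Cpeb4* varied more between pools of one treatment than between the treatments. It had 222, 173 and 15.0 CPM in control pools 1 to 3 (1981, 1441 and 134 counts) and 31.3, 333 and 189 CPM in quercetin pools 1 to 3 (251, 3042 and 1615 counts). Control replicate 3 and quercetin replicate 1 stood low, the other 4 pools stood high, and there was 1 low pool in each group. The highest control pool was 14.7-fold above the lowest and the highest quercetin pool 10.6-fold above the lowest, while the gap between the low pair and the next pool was 5.48-fold on the log2 CPM scale with a prior count of 2. The group means were 136 ± 108 CPM in control and 184 ± 151 CPM in quercetin (SD, n = 3).

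The within-group standard deviation (SD) of log2 CPM, pooled over the 2 groups, was 1.96 for *Cpeb4*. It was 0.16 for *Cpeb1*, 0.43 for *Cpeb2* and 0.071 for *Cpeb3*, and the median over 11842 tested genes was 0.32. By this measure *Cpeb4* ranked 44 among the tested genes, and it ranked 4 among the 1419 genes whose mean CPM lay within 2-fold of its own, of which 95% had an SD under 0.53. *Cpeb3* was at the opposite end, with an SD at percentile 0.946 of the tested genes. The value for *Cpeb4* was 1.96 with DESeq2 size factors, 1.99 with library size only and 1.97 with a prior count of 0.5.

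**Figure D1:**
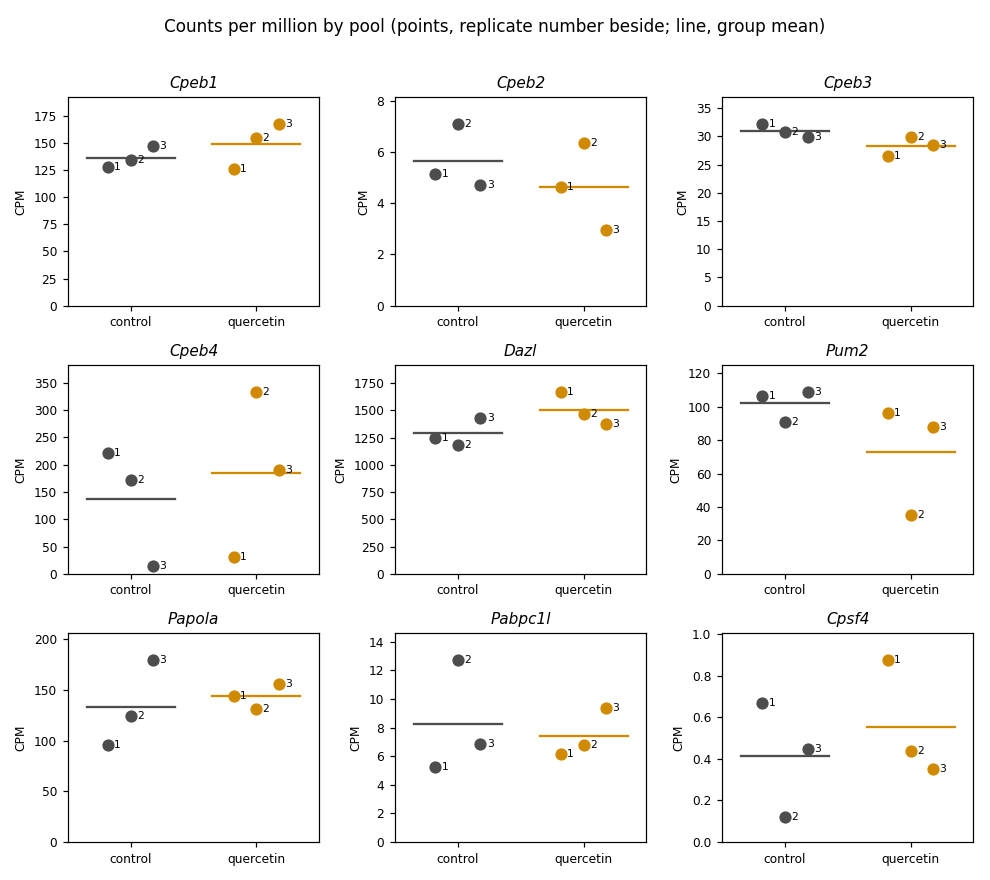
TMM-scaled CPM (vertical axes from 0) of the 9 genes in 3 control pools (grey) and 3 quercetin pools (orange), with the replicate number beside each point and a line at each group mean. *Cpeb4* has 1 low pool in each group, control replicate 3 at 15.0 CPM and quercetin replicate 1 at 31.3 CPM, and *Pum2* has 1 low pool, quercetin replicate 2 at 35.4 CPM.

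**Figure D2:**
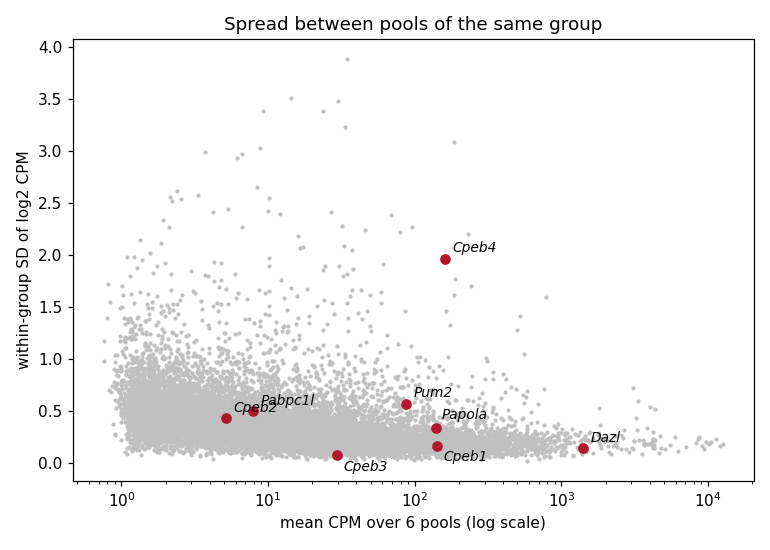
Within-group SD of log2 CPM (vertical axis) against mean CPM over 6 pools (horizontal axis, log scale) for 11842 tested genes in grey and the 8 tested genes of the set in red. *Cpeb4* lies at an SD of 1.96, above its paralogues *Cpeb1* (0.16), *Cpeb2* (0.43) and *Cpeb3* (0.071).

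*Cpeb4* shares no 31-base sequence with another annotated gene. Of the 6397 words of 31 bases in its transcripts, 0 occur in transcripts of any other gene on either strand, and 0 of the words of any CPEB gene occur in a paralogue. No other gene's exons overlap those of *Cpeb4* (ENSMUSG00000020300, chromosome 11 from 31872211 to 31935634). The low pools had 8905681 counts (control replicate 3) and 8465142 counts (quercetin replicate 1). They had 18954 and 18204 genes with a count, and quercetin replicate 1 was the lowest of the 6 pools, which ran up to 19374. On the first principal component of log2 CPM the pair lay at 10.1 and -37.9, the latter the most extreme pool, with the other 4 between -30.9 and 31.3. The part of these pool properties in the level of *Cpeb4* was not tested.

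Other genes with such a gap had various pairs of low pools. Of 7920 tested genes with a mean of at least 5 CPM, 26 had a gap of at least 4-fold on the log2 CPM scale between their 2 lowest pools and the rest. The low pair was control replicate 3 and quercetin replicate 1 for 2 of them, *Cpeb4* and *Gm26920*, other pairs held 0 to 4 genes, and 13 of the 15 possible pairs were the low pair of at least 1 gene. *Zp2*, an oocyte-specific zona pellucida gene named after its values were seen, ranged 11.9-fold over the pools but was not among the 26. Its lowest pools were control replicate 1 (223 CPM) and quercetin replicate 1 (130.5 CPM), the latter also low in *Cpeb4*, and the next was control replicate 3 (628 CPM). *Zp1* and *Zp3* had the same 2 lowest pools as *Zp2*.

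The genes whose log2 CPM followed *Cpeb4* most closely over the 6 pools, among 7919 searched, were *Fn1* (Pearson r = 0.979), *Vipas39* (0.978), *Wdr11* (0.968), *Herc1* (0.967) and *Ankrd49* (0.958). Each had its 2 lowest values in the same pools as *Cpeb4*, which choosing genes by this correlation makes likely. Their range was far narrower, with *Fn1* between 5.16 and 8.42 CPM and *Ankrd49* between 75.4 and 131 CPM. With 6 points and this many genes searched, high coefficients are a description only, and no p is given.

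*Cpeb1*, which encodes the founding member of the family, was nearly even over the pools. It had 128, 134 and 147 CPM in the controls, against 126, 154 and 167 CPM with quercetin. The quercetin pools lay on both sides of the controls, and the groups overlapped. The means were 136 ± 10.1 and 149 ± 20.8 CPM (SD, n = 3). *Cpeb3* was the steadiest of the set, at 32.1, 30.7 and 29.9 CPM in the controls, against 26.5, 29.8 and 28.4 CPM with quercetin. All quercetin pools lay below all control pools, by a small margin, with means of 30.9 ± 1.10 and 28.2 ± 1.69 CPM (SD, n = 3, p = 0.1 in an exact permutation test, two-sided and on log2 values, the smallest that 3 pools against 3 can give). *Cpeb2* was the scarcest of the family, with 46, 59 and 42 counts in the controls, against 37, 58 and 25 with quercetin. These groups overlapped, and quercetin replicate 3 was the lowest. *Cpeb1* (ENSMUSG00000025586) spans chr7:81347026-81455465, *Cpeb2* (ENSMUSG00000039782) chr5:43233170-43289724 and *Cpeb3* (ENSMUSG00000039652) chr19:37021291-37208601. On the opposite strand, *Gm7854* overlaps 1.75% of the exon bases of *Cpeb2* and *A330032B11Rik* 1.56% of those of *Cpeb3*, and since the strand setting of the counting is not given, reads there cannot be told apart.

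Levels were set side by side between genes after division by the length of all annotated exons of each gene. The transcript forms present in oocytes were not determined, so orders and shares between genes are approximate. Per kilobase of exon, *Cpeb2* was the least of the CPEB messages in every pool, and *Cpeb1* and *Cpeb4* had the highest medians. *Cpeb1* made up 43.4%, 49.9% and 83.4% of the summed CPEB level in the controls, against 76.8%, 39.2% and 54.0% with quercetin. *Cpeb4* made up 49.5%, 42.3% and 5.59% in the controls, against 12.6%, 55.7% and 40.3% with quercetin. *Cpeb3* made up 6.16%, 6.45% and 9.57% in the controls, against 9.11%, 4.29% and 5.19% with quercetin, and so stood above *Cpeb4* in control replicate 3. The ratio of *Cpeb4* to *Cpeb1* per kilobase was 1.14, 0.848 and 0.0671 in the controls, against 0.163, 1.42 and 0.747 with quercetin. The sum of the 4 genes was 42.2 and 39.2 CPM per kilobase in the pools low in *Cpeb4* and 64.1 to 93.8 in the others, and *Cpeb1* was 35.2 and 30.1 CPM per kilobase in those 2 pools against 30.5 to 39.8 in the other 4.

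**Figure D3:**
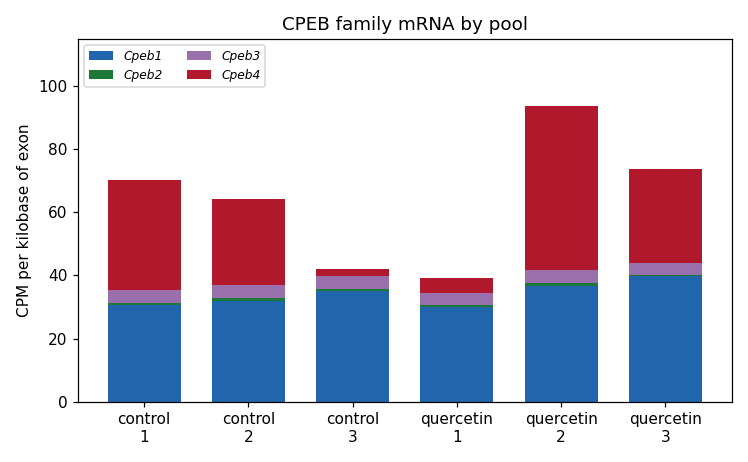
Stacked level of *Cpeb1*, *Cpeb2*, *Cpeb3* and *Cpeb4* in each of the 6 pools, in CPM per kilobase of exon (vertical axis from 0). The *Cpeb1* segment is similar in all pools (30.1 to 39.8), and the *Cpeb4* segment ranges from 2.36 in control replicate 3 to 52.2 in quercetin replicate 2.

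*Dazl* was the most abundant of the 9 messages. It had 1251, 1184 and 1431 CPM in the controls, against 1665, 1463 and 1378 CPM with quercetin. The groups overlapped, since control replicate 3 was above quercetin replicate 3. The means were 1289 ± 128 and 1502 ± 148 CPM (SD, n = 3). *Pum2* had 106, 91.0 and 109 CPM in the controls, against 96.2, 35.4 and 87.6 CPM with quercetin. Quercetin replicate 2 stood apart at 324 counts, the other 5 pools lay between 87.6 and 109 CPM, and the groups overlapped. *Dazl* (ENSMUSG00000010592) lies at chr17:50279395-50293636 and *Pum2* (ENSMUSG00000020594) at chr12:8674134-8752581.

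*Papola* had 96.1, 124 and 179 CPM in the controls, against 144, 131 and 156 CPM with quercetin. Control pools spread on both sides of the quercetin pools, with means of 133 ± 42.3 and 144 ± 12.4 CPM (SD, n = 3). Of its 31-base words 2.69% also occur in *Gm14245* or *Papolb*, and *Papolb* had 0 counts in every pool. *Pabpc1l* had 47, 106 and 61 counts in the controls, against 49, 62 and 80 with quercetin, or 8.27 ± 3.92 and 7.43 ± 1.73 CPM (SD, n = 3). The single highest pool was control replicate 2, and the groups overlapped. At a median of 2.50 CPM per kilobase it was below *Pabpc4* (16.9) and above *Pabpc1* (0.568), both cytoplasmic poly(A)-binding proteins named after their values were seen.

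*Cpsf4*, the CPSF subunit that contacts the AAUAAA signal together with WDR33, had 6, 1 and 4 counts in the controls, against 7, 4 and 3 with quercetin. The 3 counts used as a floor correspond to 0.328 to 0.375 CPM in these pools, and no pool had more than 7 counts. The gene was below the filter of the fit, and with a filter of at least 1 count in total its log2 fold change was 0.40 (adjusted p = 0.962 in edgeR's quasi-likelihood test), so that a change was not detectable at this depth. *Wdr33* had 3069 to 4690 counts in the same pools. The paralogue *Cpsf4l* had 61, 78 and 41 counts in the controls, against 55, 58 and 41 with quercetin. Its median was 2.93 CPM per kilobase, against 0.123 for *Cpsf4*, and its log2 fold change was -0.20 (standard error 0.32). These reads were amplified and carry no molecular identifier, so the floor covers counting error only. *Papola* (ENSMUSG00000021111) lies at chr12:105784694-105838944, *Pabpc1l* (ENSMUSG00000054582) at chr2:164025450-164050538 and *Cpsf4* (ENSMUSG00000029625) at chr5:145167213-145182041.

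Ordered by median CPM per kilobase over 6 pools, the levels ran from *Dazl* (368) through *Cpeb1* (33.6), *Cpeb4* (28.4), *Papola* (20.9), *Pum2* (12.9), *Cpeb3* (4.03), *Pabpc1l* (2.50) and *Cpeb2* (0.630) to *Cpsf4* (0.123). The 6 pools of *Dazl* lay above all 6 of *Cpeb1*, and there was likewise no overlap between *Pum2* and *Cpeb3*, *Pabpc1l* and *Cpeb2*, or *Cpeb2* and *Cpsf4*. *Cpeb1*, *Cpeb4* and *Papola* each overlapped the next gene in the order, as did *Cpeb3* with *Pabpc1l*. *Cpeb1* was above *Cpeb4* in 4 of the 6 pools.

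Whether quercetin changed these messages was asked in the fit over all 11842 genes, by edgeR's quasi-likelihood test. With calls set at over 2-fold and an adjusted p under 0.05, 0 of the 8 tested genes were called, against 0% of all tested genes. DESeq2, edgeR's likelihood ratio test and limma-voom each called 0 of the 8, against 12, 16 and 0 of all 11842 tested genes. At an unadjusted p under 0.05, 0 of the 8 passed, against 4.03% of all tested genes. In TMM-scaled CPM the pools did not overlap for 1 of the 9, *Cpeb3*, against 10.6% of all tested genes. With DESeq2 size factors *Cpeb3* overlapped too.

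Of the 8, 4 had a higher and 4 a lower estimate, with a median log2 fold change (quercetin over control) of -0.0078 beside -0.026 over all tested genes. The estimates and standard errors were 0.44 (0.90) for *Cpeb4*, 0.22 (0.14) for *Dazl*, 0.13 (0.15) for *Cpeb1* and 0.11 (0.22) for *Papola*. They were -0.13 (0.17) for *Cpeb3*, -0.15 (0.36) for *Pabpc1l*, -0.28 (0.34) for *Cpeb2* and -0.48 (0.32) for *Pum2*. After Benjamini-Hochberg adjustment, edgeR's p-values for the 8 lay between 0.988 and 0.993. The estimate for *Pum2* was -0.15 without quercetin replicate 2. That of *Cpeb4* had the widest error, and its direction depended on single pools, at -0.087 without control replicate 3, -0.30 without quercetin replicate 2 and 0.98 without control replicate 1.

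**Figure D4:**
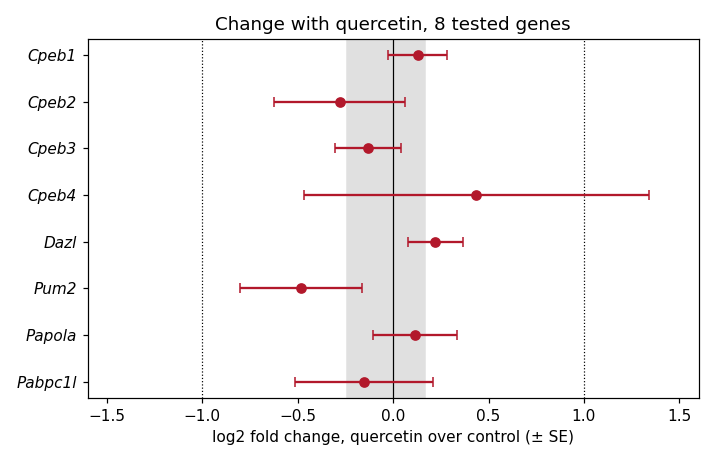
Log2 fold change of quercetin over control (horizontal axis) with its standard error for the 8 tested genes, the interquartile range of all 11842 tested genes shaded (-0.24 to 0.17) and 2-fold changes dotted. Estimates run from -0.48 for *Pum2* to 0.44 for *Cpeb4*, and the error bar of *Cpeb4* (0.90) is the longest.

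The rest of the polyadenylation machinery was examined in lists of genes by role. Of 16 other genes of CPSF and of the cleavage factors, 14 were tested, 0 passed either threshold, 5 estimates were higher and 9 lower, and the median log2 fold change was -0.22. The pools did not overlap for 2 genes with higher levels (*Wdr33* and *Cpsf2*) and 2 with lower levels (*Cpsf1* and *Pcf11*) of these 14, beside 10.6% of all tested genes. *Wdr33* had 368 to 404 CPM in control and 427 to 513 CPM in quercetin pools (log2 fold change 0.26, standard error 0.13). *Cpsf7*, a subunit of cleavage factor I, had 9, 18 and 20 counts in control and 10, 10 and 7 in quercetin pools (-0.76, standard error 0.46). For both, edgeR's quasi-likelihood test gave a Benjamini-Hochberg adjusted p = 0.988.

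Of 13 tail enzymes and poly(A)-binding proteins, 11 were tested and 0 passed either threshold, with a median log2 fold change of -0.054. *Tent2*, which encodes the cytoplasmic poly(A) polymerase GLD2, had 83.2 to 97.4 CPM in control and 91.3 to 112 CPM in quercetin pools, with an estimate of 0.18 (standard error 0.15) on the log2 scale. *Tent4b* had 10.1 to 17.4 and 10.9 to 26.8 CPM (0.32, standard error 0.35). Both had groups that overlapped. Of 12 other regulators that bind mRNA, 8 were tested and 0 passed either threshold, with a median of -0.16. The oocyte genes *Zar1l* and *Zar1* had the smallest p of these, with log2 fold changes of -0.52 (standard error 0.27) and -0.23 (standard error 0.15) and groups that overlapped.

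The messages known to be translated through CPEs or DAZL during maturation mostly had higher estimates with quercetin, but 0 were called. All 13 listed were tested, and their sum was 22383 to 29913 CPM in controls and 27392 to 31224 CPM with quercetin. The largest part of the sum came from *Btg4*, at 8958 to 13007 CPM in controls and 10275 to 12847 CPM with quercetin. Of the 13, the estimate was higher in 11 and lower in 2, with a median log2 fold change of 0.19. Over all 11842 tested genes, 5490 estimates were higher and 6352 lower, with a median of -0.026. The list was not compared with other genes of similar level, so the lean is not shown to be particular to it. *Tpx2*, a spindle assembly factor, was the single gene of the 13 at an unadjusted p under 0.05, against 4.03% of all tested genes. It had 445, 437 and 427 CPM in the controls, against 563, 601 and 502 CPM with quercetin. Its log2 fold change was 0.35 (standard error 0.13, edgeR adjusted p = 0.988). The pools did not overlap for 2 of the 13, *Tpx2* and *Ccnb1*, beside 10.6% of all tested genes. *Dcp2*, the mRNA decapping enzyme, had 147, 171 and 170.1 CPM in the controls, against 85.3, 89.3 and 168 CPM with quercetin, so that 2 quercetin pools were low and the groups overlapped (-0.51, standard error 0.26). Among the 10 oocyte markers, *Ooep*, at -0.92 (standard error 0.38), was the single gene at an unadjusted p under 0.05, against 4.03% of all tested genes. *Gdf9*, at 0.22 (standard error 0.14), had the next smallest p, and neither was called. The cumulus and granulosa markers tested, *Cyp19a1* and *Has2*, had estimates of 0.22 (standard error 0.15) and 0.045 (standard error 0.54).

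*Ccnb1* and *Mos*, classical CPE-controlled messages encoding cyclin B1 and the kinase that maintains metaphase II arrest, are given as values only. *Mos* had 1008, 1174 and 1709 CPM in the controls, against 1423, 1239 and 1488 CPM with quercetin. *Ccnb1* had 3491, 3385 and 3730 CPM in the controls, against 3745, 5216 and 4178 CPM with quercetin. Both genes were named after their values were seen. Over all tested genes with a 100-base terminal window, the median log2 fold change was 0.026 for 2056 genes with a CPE and -0.040 for 7429 without, and the median within-group SD was 0.27 and 0.32. By this search *Ccnb1* and *Mos* themselves fell among the genes without a CPE. Only 4 of the 13 listed messages held one in the window, so the split does not divide messages by control through CPEs.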

How the data were processed

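Libraries were made from 6 pools with the Smart-seq HT kit, which primes cDNA on poly(A) tails, and tail lengths were not measured. The part of tail length in the levels and fold changes of these genes was not tested. According to the paper the reads were aligned with Hisat2 to GRCm38.91, while the submitters' processing notes name TopHat2 2.0.6 and CASAVA 1.8. The authors deposited raw read counts per Ensembl gene for each pool, without normalization. The counting program and its strand and multiple-mapping settings are not given in the sources used here.

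Counts passing filterByExpr (minimum count 10) were scaled by TMM over the deposited totals and compared with edgeR 4.0.16 (glmQLFit, glmQLFTest, R 4.3.3), without covariates, with Benjamini-Hochberg adjustment over 11842 genes. The standard error is the size of the log2 fold change divided by the square root of F. CPM use TMM-scaled sizes, and log2 CPM a prior count of 2. The fit was tested on simulated data. Nothing in the labels says whether the pools of a group were cultured separately, so p-values measure the spread between these pools, which may be technical.

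Genes and lists were chosen with earlier results of these data known. Named genes are the 9, those of each other list with an unadjusted p under 0.05 (or the 2 with the smallest p where fewer than 2 had one) and the 5 most correlated with *Cpeb4*, and all others were named after their values were seen. Symbols, positions and sequences came from GENCODE M21 (GRCm38), taking the transcript with the longest 3′ untranslated region. Alternatives used DESeq2 1.42.0 and limma 3.58.1 (voom). Python 3.11.15, pandas 2.3.3 and matplotlib 3.10.9 were used.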

Additional observations from a re-analysis of the deposited data

How the results depend on the processing

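In all 14 alternatives tried, 0 of the tested genes of the set were called, and the smallest adjusted p was 0.424, for *Dazl* without quercetin replicate 3 (edgeR's quasi-likelihood test). Over all genes, the number called was 0 by edgeR's quasi-likelihood test, 12 by DESeq2, 16 by edgeR's likelihood ratio test and 3 with a filter of at least 1 count in total, and leaving out single pools gave 0 to 7, the highest without quercetin replicate 1. Pools that did not overlap between groups were found for 1 of the 9 genes (*Cpeb3*), for 0 with DESeq2 size factors, for 2 (*Cpeb3* and *Pum2*) with library size only, and for 1 to 3 with a pool left out, beside 10.6%, 10.7%, 11.2% and 16.2% to 31.4% of all tested genes. Among the tested genes of the set, estimates changed direction for *Cpeb4* without control replicate 3 (-0.087) and without quercetin replicate 2 (-0.30). They also did so for *Pabpc1l* without control replicate 2 (0.30) and for *Papola* without control replicate 1 (-0.072). With single pools left out they ran from -0.30 to 0.98 for *Cpeb4*, from -0.39 to 0.30 for *Pabpc1l*, from -0.072 to 0.40 for *Papola*, from 0.041 to 0.24 for *Cpeb1* (lowest without quercetin replicate 3, highest without quercetin replicate 1), from -0.58 to -0.035 for *Cpeb2* (without quercetin replicates 2 and 3) and from -0.73 to -0.15 for *Pum2* (without quercetin replicates 1 and 2). In a comparison chosen after seeing the data, the median log2 fold change of all tested genes was -0.026 with TMM, -0.0087 with DESeq2 size factors and -0.11 with library size only.

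Deviations from the group means correlated by 0.296, 0.101 and -0.0303 between control and quercetin pools of number 1, 2 and 3. Between pools of unlike number they correlated by -0.299 to 0.176. These ranges overlap, so the replicate numbers were not shown to pair the pools. With the replicate block, 1 gene of the set, *Pum2*, had an unadjusted p under 0.05 in edgeR's quasi-likelihood test (log2 fold change -0.60, adjusted p = 0.906). Without the block 0 did, and 0 genes were called with it. The share of all tested genes under that threshold was 4.03% without the block and was not determined with it, so this count has no background of its own. At this depth *Cpsf4* was under the filter in each setting but that of at least 1 count in total, so it has no other test. Its difference of mean log2 CPM was 0.33 with all pools and -0.051 without control replicate 2.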
